A study of Oryza sativa with 14 samples.

Results

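The genes described here encode enzymes of glycolysis and fermentation in rice seedlings, compared between the wild type (WT) and osnat10, a line named after N-acetyltransferase 10. Members were chosen from the gene descriptions in the deposited expression table. A gene was taken where its description named hexokinase, glucose-6-phosphate isomerase, phosphofructokinase, fructose-bisphosphate aldolase, triosephosphate isomerase, phosphoglycerate mutase, enolase, pyruvate kinase, pyruvate decarboxylase, lactate dehydrogenase or alcohol dehydrogenase. Of 131 matching genes, 16 were left out because they were described as chloroplast or cinnamyl alcohol enzymes or were excluded by locus, which left 115 members of 38978 genes. The rule reads descriptions alone, so a plastid isoform whose description does not say chloroplast would remain a member. WT is the cultivar Kitaake, and the labels call the other genotype osnat10 without giving its allele, its background or the number of independent lines. Both genotypes grew on Yoshida nutrient solution under short days of 10 h light and 14 h dark, whole seedlings were the source of RNA, and each genotype had 3 biological replicates. The labels state neither the age of the seedlings nor how many plants made up a replicate.

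Glycolysis splits hexose sugars into pyruvate and yields ATP and NADH, and plants run it in the cytosol and, with separate isoforms, in plastids. When oxygen is short, pyruvate decarboxylase and alcohol dehydrogenase turn pyruvate into ethanol and return NAD+ to glycolysis. This route is known for its part in the survival of rice seedlings under water, and lactate dehydrogenase offers a second outlet. The names in the table cover more than this pathway. A narrower set of 60 of the 115 members was described by the enzyme's own name, with phosphofructokinases and pyruvate kinases named by their family counted in. The other 55 were described by a domain, as phosphoglycerate mutases other than the cofactor-independent form, or as another kind of alcohol dehydrogenase, such as allyl, sinapyl, short-chain or zinc-containing superfamily types, whose substrates need not be ethanol.

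Values are RPKM, that is, read counts divided by gene length and by the size of the library, so levels can be set beside each other between genes. Recovered depth was 13688629 to 15583776 reads over genes per library. Of the 115 members, 98 were tested, because they reached 0.5 RPKM in 3 or more of the 6 libraries. The WT libraries stood apart from each other more than the osnat10 libraries did. The median SD of a member on the log2 scale was 0.298 in WT and 0.154 in osnat10, beside 0.365 and 0.180 over all 24380 tested genes. The summed RPKM of 17 chlorophyll a/b binding genes, markers of green tissue, was 11949, 809 and 534 in WT and 4089, 3626 and 3901 in osnat10, with 3 of the 17 at 0 in every library. The sum of 6 RCc-type root protein genes was 422, 295 and 138 in WT and 676, 919 and 776 in osnat10. WT replicate 1 was therefore far above the other WT libraries for the green-tissue genes, and all osnat10 libraries lay above all WT libraries for the root genes. The part of tissue makeup in the results was not tested, and in RNA from whole seedlings fewer cells of a type and less RNA per cell cannot be told apart.

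A single member passed the test. It was the aldolase gene Os12g0169600, which was lower in osnat10, so 1 of 98 tested members was called at an adjusted p under 0.05, where 0.152% of all tested genes were called, 0.123% higher and 0.0287% lower in osnat10 (limma on log2(RPKM + 0.5), Benjamini-Hochberg over 24380 genes). The members' total did not separate the genotypes. Their summed RPKM ran from 3516 to 3949 over the 6 libraries, which was 0.673% to 0.730% of all RPKM, and the WT and osnat10 libraries were interleaved. This total covers all 115 members and so also the 55 outside the narrower set. It lacks glyceraldehyde 3-phosphate dehydrogenase and phosphoglycerate kinase, which the rule does not take, so it is not the total of the pathway. The log2 fold change of osnat10 over WT was positive in 58 members and negative in 40, or 59.2% positive, beside 59.9% of all tested genes. Its median was 0.20 over the members and 0.11 over all tested genes. All 3 osnat10 libraries lay above all 3 WT libraries for 30 of the 98 members (30.6%), where this held for 17.2% of all tested genes, and below them for 10 members (10.2%), beside 7.79% of all tested genes. At an unadjusted p under 0.05, 30 members (30.6%) were reached, beside 19.2% of all tested genes. Of these members 23 were higher, beside 13.6% of all tested genes, and 7 lower, beside 5.69%.

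**Figure D1:**
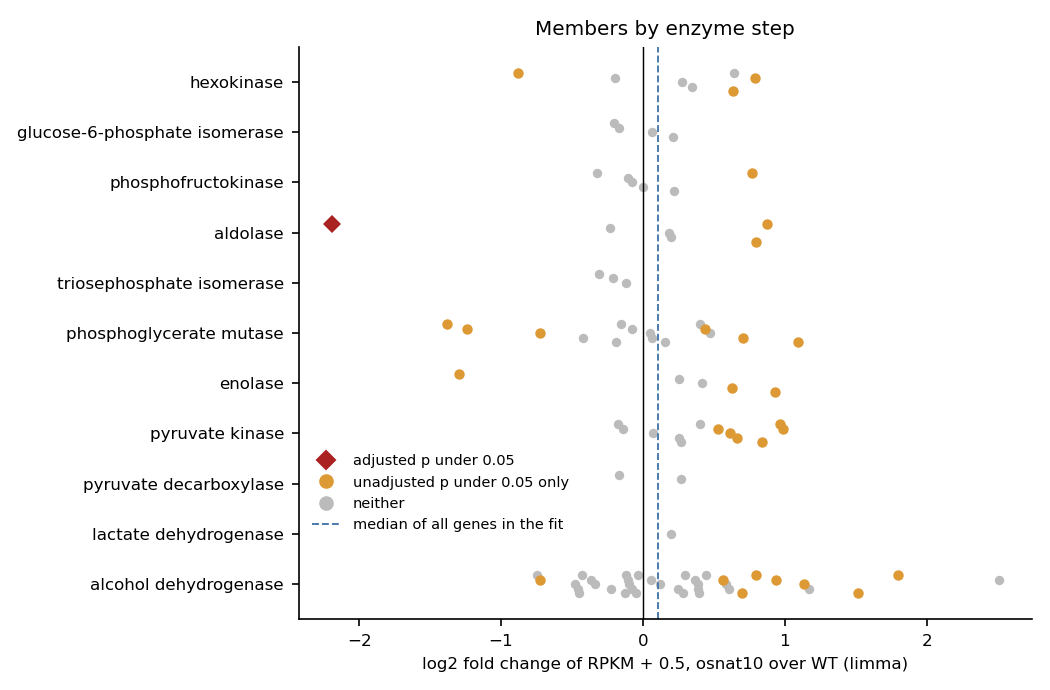
Log2 fold change of osnat10 over WT (x axis, log2(RPKM + 0.5) scale) for the 98 tested members, 1 point per gene, arranged by enzyme step (y axis), with symbols marking the called gene and those at an unadjusted p under 0.05. The called aldolase gene lies at -2.19, and every step but triosephosphate isomerase and lactate dehydrogenase holds genes on both sides of 0.

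How the called and near-called members stood depended on single libraries, of osnat10 as well as of WT. Without WT replicate 1, 17 of the 98 members were called, 11 higher and 6 lower in osnat10, while 11.1% of all tested genes were called. Without WT replicate 3, 9 were called and 4.04% of all tested genes. Without any 1 of the other 4 libraries 0 members were called by limma. The share of all tested genes called was then 0.041% without WT replicate 2, 0.0328% and 0.0451% without osnat10 replicates 1 and 2, and 0.041% without osnat10 replicate 3. At an unadjusted p under 0.05 these 4 fits reached 17 to 27 of the 98 members, beside 2617 to 3787 of all 24380 tested genes. With all libraries, median of ratios scaling called 3 members (0.443% of all tested genes), quantile normalisation 2 (0.213%), a weight per genotype group 2 (0.615%) and the replicate number as a block 1 (0.082%). The authors' deposited table gave 11 of 100 members with an adjusted p under 0.05, 5 higher and 6 lower in osnat10, beside 6.2% of all genes with such a value there (2.42% higher and 3.79% lower).

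Hexokinases phosphorylate glucose and so open the pathway, and 9 hexokinase genes were members. The most abundant was OsHXK5 (Os05g0522500), which together with OsHXK6 is known in rice as a glucose sensor. It stood at 36.1, 39.0 and 37.6 RPKM in WT replicates 1 to 3 and 43.0, 46.2 and 47.4 in those of osnat10. The groups did not overlap, but the difference of 0.27 (log2, SE 0.14) missed the threshold (limma adjusted p = 0.321). HXK7 (Os05g0187100), which like OsHXK1, OsHXK2, OsHXK3 and OsHXK10 was chosen after its values were seen, lay on the other side. It measured 10.9, 11.7 and 12 RPKM in WT replicates 1 to 3 and 4.18, 7.31 and 7.07 in those of osnat10, so every osnat10 library lay below every WT library (log2 fold change -0.88 ± 0.24 SE, limma adjusted p = 0.124). In the authors' deposited table its log2 fold change was -1.00 ± 0.29 SE with an adjusted p of 0.0144. HXK7 made up 11.1% ± 0.736 in WT and 4.86% ± 1.02 in osnat10 (SD, n = 3 each) of the summed hexokinase RPKM. OsHXK2 (Os05g0532600) stood at 3.85, 5.30 and 7.51 in WT and 7.90, 11.7 and 9.72 in osnat10, with the osnat10 libraries above (limma adjusted p = 0.184). OsHXK3 (Os01g0940100) was also above in every osnat10 library, and without WT replicate 3 it passed the test (limma adjusted p = 0.0381). OsHXK10 (Os05g0375100) had no read in any library, and OsHXK1 (Os07g0446800) stayed under the level required for the test. The summed RPKM of all hexokinases was 104 ± 8.31 in WT and 126 ± 11 in osnat10 (SD, n = 3 each).

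Glucose-6-phosphate isomerase turns the phosphorylated glucose into fructose 6-phosphate. Its 4 genes gave the closest pair of group means of the 11 steps, with a summed RPKM of 165 ± 20.7 in WT and 166 ± 4.81 in osnat10 (SD, n = 3 each). The most abundant, Os09g0465600, stood at 43.7, 59.5 and 53.0 in WT and 57.1, 59.0 and 63.4 in osnat10, and the groups overlapped (log2 fold change 0.21 ± 0.17 SE, limma adjusted p = 0.523).

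Phosphofructokinase adds the second phosphate. Plants hold ATP-dependent enzymes, which work in the forward direction, and a pyrophosphate-dependent enzyme (PFP), which is reversible. The ATP-type gene OsPFK06 (Os06g0151900) was the most abundant of the 6 members. It measured 45.9, 68.5 and 52.5 RPKM in WT replicates 1 to 3 and 39.8, 44.4 and 47.5 in those of osnat10, with overlapping groups (log2 fold change -0.32 ± 0.19 SE, limma adjusted p = 0.384). OsPFPA1 (Os02g0714200), a PFP alpha subunit, measured 34.2, 28.0 and 40.1 RPKM in WT replicates 1 to 3 and 51.2, 65.4 and 58.0 in those of osnat10. Every osnat10 library lay above every WT library, and the difference missed the threshold in the full set of libraries (log2 fold change 0.77 ± 0.19 SE, limma adjusted p = 0.106) but passed without WT replicate 1 (adjusted p = 0.0488) and without WT replicate 3 (adjusted p = 0.0482). OsPFPA1 made up 25.9% ± 5.84 in WT and 40.6% ± 2.94 in osnat10 (SD, n = 3 each) of the summed phosphofructokinase RPKM, and OsPFK06 41.8% ± 6.31 in WT and 30.6% ± 1.16 in osnat10 (SD, n = 3 each). By mean share OsPFK06 led in WT and OsPFPA1 in osnat10. The sum of the step was 133 ± 7.85 in WT and 143 ± 9.63 in osnat10 (SD, n = 3 each).

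Aldolase splits fructose 1,6-bisphosphate into the pair of triose phosphates, and it was the step with the called gene. Os12g0169600, on chromosome 12, measured 36.5, 41.7 and 27.9 RPKM in WT replicates 1 to 3 and 9.83, 7.03 and 5.48 in those of osnat10. All osnat10 libraries lay below all WT libraries by a wide gap, at 35.4 ± 7.0 RPKM in WT and 7.45 ± 2.21 in osnat10 (SD, n = 3 each), and the gene fell by 2.19 on the log2 scale (SE 0.25, limma adjusted p = 0.0275). These levels rest on 3093 reads over the WT libraries and 630 over the osnat10 libraries. In the authors' deposited table its log2 fold change was -2.36 ± 0.30 SE with an adjusted p of 1.04e-11. It was called in 10 of 14 alternatives, with an adjusted p between 0.00791 and 0.163. The calls were lost on leaving out WT replicate 2 (adjusted p = 0.133) or osnat10 replicate 1 (0.0630), 2 (0.121) or 3 (0.163), while the log2 fold change stayed between -2.40 and -2.00.

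None of the other 5 aldolase genes passed the test. OsAld-Y (Os06g0608700), the most abundant aldolase by mean RPKM, measured 234, 243 and 99.5 RPKM in WT replicates 1 to 3 and 142, 176 and 139 in those of osnat10. WT replicate 3 was far below the other WT libraries, the groups overlapped and no difference was called (log2 fold change -0.23 ± 0.34 SE, limma adjusted p = 0.749). Os01g0118000 measured 34.9, 33.2 and 31.9 RPKM in WT replicates 1 to 3 and 47.8, 61.6 and 66.9 in those of osnat10, with every osnat10 library above every WT library (log2 fold change 0.80 ± 0.17 SE, limma adjusted p = 0.0926), and it passed without WT replicate 1 (adjusted p = 0.0296). It had a log2 fold change of 0.70 ± 0.23 SE and an adjusted p of 0.0424 in the authors' deposited table. The cytoplasmic isozyme Os05g0402700, named after its values were seen, measured 150.3, 91.9 and 102 RPKM in WT replicates 1 to 3 and 170.2, 237 and 217 in those of osnat10, also without overlap (log2 fold change 0.87 ± 0.24 SE, limma adjusted p = 0.122), and passed without WT replicate 1 (adjusted p = 0.0156). The neighbouring locus Os01g0118100, picked with its values known, stood at 17.7, 15.7 and 14.2 in WT and 19.1, 16.2 and 19 in osnat10 with overlapping groups. How reads shared by similar copies were counted is not stated.

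As shares of the summed aldolase RPKM, Os12g0169600 made up 9.17% ± 1.28 in WT and 1.72% ± 0.701 in osnat10 (SD, n = 3 each). Os05g0402700 made up 30.0% ± 7.86 in WT and 46.4% ± 2.47 in osnat10 (SD, n = 3 each), and OsAld-Y 47.3% ± 10.5 in WT and 34.2% ± 2.81 in osnat10 (SD, n = 3 each). The sum itself was 474, 428 and 277 in WT and 390.4, 499 and 449 in osnat10, so the groups overlapped (exact permutation p = 0.6, two-sided). The mean shares of single genes differed while the sum was not separated. Without WT replicate 3 the log2 difference of the sum was -0.02 in place of 0.21.

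**Figure D2:**
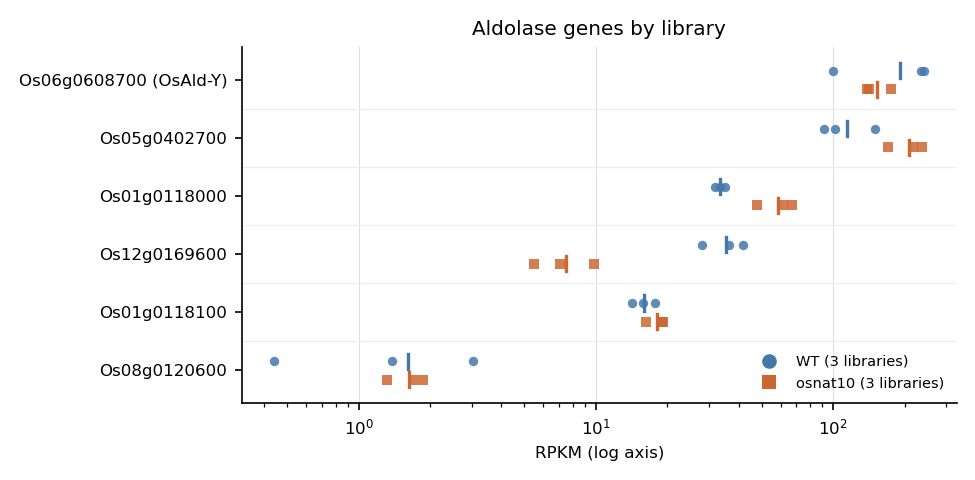
RPKM (x axis, log scale) of the 6 aldolase genes (y axis) in each of the 3 WT and 3 osnat10 libraries, 1 symbol per library with the group mean as a bar. Os12g0169600 separates with osnat10 below WT, while Os01g0118000 and Os05g0402700 separate with osnat10 above WT.

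Triosephosphate isomerase interconverts the triose phosphates. Its 3 genes all had negative fold changes, and none was called. The most abundant member of the whole set was Os09g0535000, at 529, 434 and 377 RPKM in WT replicates 1 to 3 and 342, 389 and 343 in those of osnat10. WT replicate 3 overlapped with the osnat10 libraries (log2 fold change -0.31 ± 0.21 SE, limma adjusted p = 0.447). Os09g0535000 made up 64.3% ± 3.74 in WT and 62.7% ± 1.69 in osnat10 (SD, n = 3 each) of the step's summed RPKM. Its description names no compartment, so the share of the sum that belongs to cytosolic glycolysis is not given. OsTPI1 (Os01g0147900), picked with its values known, stood at 243, 239 and 239 in WT and 198, 211 and 215 in osnat10, and its osnat10 libraries all lay below WT (log2 fold change -0.21 ± 0.16 SE, limma adjusted p = 0.501). The summed RPKM was 776, 679 and 621 in WT and 544, 604 and 562 in osnat10, without overlap. With 3 libraries against 3 an exact two-sided permutation test cannot go below 0.1, which it reached here, and adjusted over the 11 steps p was 0.55.

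Phosphoglycerate mutase moves the phosphate between carbons, and plants use the cofactor-independent form. The 4 genes named as that form had a summed RPKM of 217 ± 32.6 in WT and 228 ± 10.4 in osnat10 (SD, n = 3 each). BPM (Os01g0817700) was the most abundant, at 105, 168 and 149.8 RPKM in WT replicates 1 to 3 and 127, 127 and 140.2 in those of osnat10, with overlapping groups (log2 fold change -0.07 ± 0.21 SE, limma adjusted p = 0.876). A further 15 members were described by the phosphoglycerate mutase family, by its domain or otherwise than as the cofactor-independent form, and the fold is shared with other phosphatases, so their place in glycolysis is not given by the table. Among these, Os11g0150100 measured 32.2, 44.3 and 38.3 RPKM in WT replicates 1 to 3 and 14.4, 17 and 16 in those of osnat10. The osnat10 libraries were tightly grouped and all below WT (log2 fold change -1.24 ± 0.17 SE, limma adjusted p = 0.0552). It passed in 5 of 14 alternatives, among them leaving out WT replicate 1 (adjusted p = 0.00472) or WT replicate 3 (0.0259), and in the authors' deposited table its log2 fold change was -1.37 ± 0.19 SE with an adjusted p of 6.56e-10. Os01g0660900, picked with its values known, stood at 6.32, 15.9 and 10.6 in WT and 1.98, 5.38 and 4.31 in osnat10, also without overlap (log2 fold change -1.38 ± 0.42 SE, limma adjusted p = 0.146). The authors' deposited table gave it a log2 fold change of -1.56 ± 0.45 SE with an adjusted p of 0.0156. Summed over all 19 members the step was 383 ± 51.5 in WT and 355 ± 16.2 in osnat10 (SD, n = 3 each), and its log2 difference of -0.10 became 0.08 over the 4 named genes, so its direction depends on the other 15 members.

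Enolase makes phosphoenolpyruvate. OsEE1 (Os10g0167300) gave 58.8% to 66.6% of the step's RPKM and measured 235, 306 and 289.5 RPKM in WT replicates 1 to 3 and 349, 356 and 398 in those of osnat10. The osnat10 libraries lay above the WT libraries, and the difference was not called (log2 fold change 0.42 ± 0.19 SE, limma adjusted p = 0.281). OsEno1 (Os09g0375000) measured 9.01, 9.99 and 13.9 RPKM in WT replicates 1 to 3 and 19.5, 21.4 and 22.3 in those of osnat10, again without overlap (log2 fold change 0.93 ± 0.20 SE, limma adjusted p = 0.0926), and passed without WT replicate 1 (adjusted p = 0.0362) and without WT replicate 3 (0.0241). It had a log2 fold change of 0.84 ± 0.23 SE and an adjusted p of 0.00678 in the authors' deposited table.

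Another enolase lay on the opposite side. OsEno5 (Os06g0136600), named like OsEno2 after the values were seen, measured 30.9, 86.9 and 58.2 RPKM in WT replicates 1 to 3 and 16.9, 28.7 and 21.1 in those of osnat10, with all osnat10 libraries below WT (log2 fold change -1.29 ± 0.37 SE, limma adjusted p = 0.135), and passed without WT replicate 1 (adjusted p = 0.0139). It had a log2 fold change of -1.47 ± 0.36 SE and an adjusted p of 0.00288 in the authors' deposited table. OsEno2 (Os03g0248600) stood at 116, 84.6 and 77.3 in WT and 126, 151 and 148 in osnat10, with osnat10 above (log2 fold change 0.63 ± 0.20 SE, limma adjusted p = 0.158). OsEno5 made up 12.6% ± 4.83 in WT and 3.91% ± 0.978 in osnat10 (SD, n = 3 each) of the enolase sum. That sum was 400.4, 500.5 and 453 in WT and 525, 572 and 605 in osnat10, so the groups did not overlap (exact two-sided permutation p = 0.1, the smallest possible, and 0.55 adjusted over 11 steps).

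Pyruvate kinase transfers the last phosphate of the pathway to ADP. Of 13 members, 8 were named as the enzyme or its family, and of these 1 had no read and the other 7 were tested. All 7 had positive fold changes, beside 59.9% of all tested genes. In 6 of them every osnat10 library lay above every WT library, beside 17.2% of all tested genes. Os12g0145700 measured 29.0, 32.2 and 33.4 RPKM in WT replicates 1 to 3 and 42.1, 50.4 and 53.9 in those of osnat10 (log2 fold change 0.62 ± 0.16 SE, limma adjusted p = 0.115). Os01g0276700 measured 16.7, 19.4 and 14.0 RPKM in WT replicates 1 to 3 and 24.9, 26.3 and 28.2 in those of osnat10 (log2 fold change 0.66 ± 0.17 SE, limma adjusted p = 0.117). Neither passed, and neither was called in any of 14 alternatives. OsPK1 (Os11g0148500), a cytosolic enzyme picked with its values known, stood at 47.9, 45.8 and 50.2 in WT and 62.1, 51.6 and 58.8 in osnat10. The exception to the separation was Os01g0660300, also picked with its values known, at 30.5, 17.9 and 62.1 in WT and 61.6, 60.7 and 69.3 in osnat10, where WT replicate 3 reached the osnat10 range and without that library the gene passed (limma adjusted p = 0.0292).

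Summed over these 8 genes, pyruvate kinase was 186, 178 and 225 in WT and 264, 271 and 291 in osnat10. The groups did not overlap and the ratio of the means was 1.40 (exact two-sided permutation p = 0.1, the smallest possible, and 0.367 adjusted over 11 steps). The restriction to these genes was added after the data had been seen. The other 5 members, described by the catalytic core domain that pyruvate kinase shares with phosphoenolpyruvate-using enzymes, held the most abundant gene of the step, Os12g0189300. It measured 350.1, 99.4 and 168 RPKM in WT replicates 1 to 3 and 149, 152 and 192 in those of osnat10, and WT replicate 1 was far above every other library. Its log2 fold change of -0.14 (limma adjusted p = 0.882) became 0.34 without that library. Over all 13 members the step was 479.6 ± 118 in WT and 529.6 ± 40.5 in osnat10 (SD, n = 3 each).

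**Figure D3:**
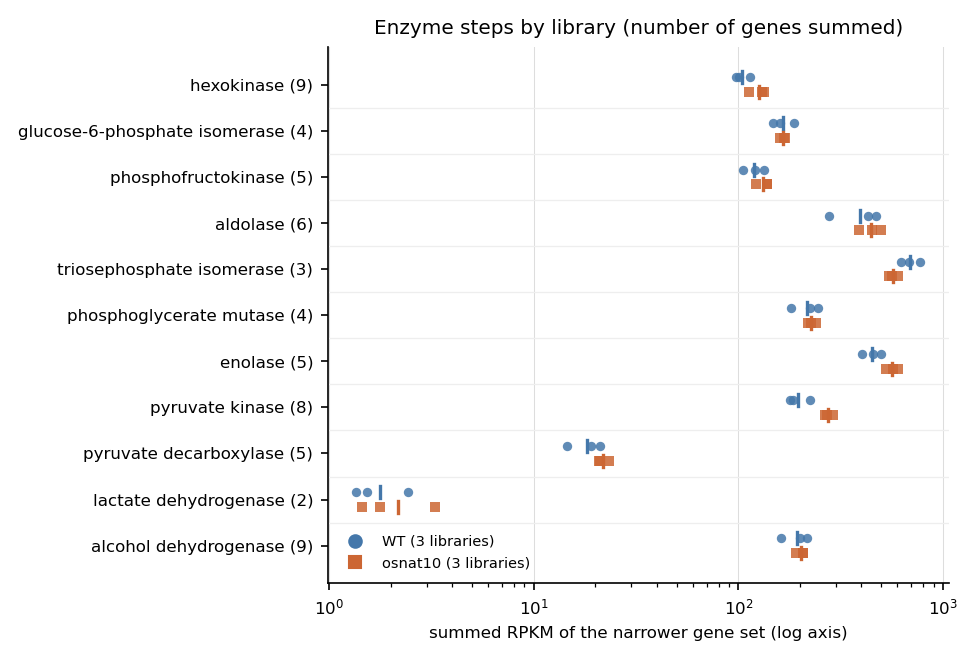
Summed RPKM (x axis, log scale) of each of the 11 enzyme steps (y axis) in each library of WT and osnat10, over the narrower set of 60 members, 1 symbol per library with a bar at the group mean. Triosephosphate isomerase separates with osnat10 below WT, enolase and pyruvate kinase with osnat10 above WT, and the groups overlap at the other 8 steps.

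Fermentation starts with pyruvate decarboxylase. pdc2 (Os03g0293500) carried most of its summed RPKM, 91.2% ± 1.17 in WT and 91.7% ± 3.08 in osnat10 (SD, n = 3 each), and measured 13.2, 19.1 and 17.6 RPKM in WT replicates 1 to 3 and 21.8, 18.4 and 19.7 in those of osnat10. The groups overlapped (log2 fold change 0.27 ± 0.19 SE, limma adjusted p = 0.470). Lactate dehydrogenase was low, with LDH (Os02g0105400) at 1.53, 2.38 and 1.35 in WT and 1.78, 1.40 and 3.25 in osnat10 (log2 fold change 0.20 ± 0.33 SE, limma adjusted p = 0.782). No difference in either step was separable from the spread between libraries.

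Alcohol dehydrogenase, which makes ethanol, had 9 members with the plain name and 34 of other kinds. A cluster of neighbouring loci on chromosome 11 holds the genes known in rice as ADH1, Adh2 and Adh3, and reads of such similar copies may be split between them. Adh3 (Os11g0210600) measured 0.0870, 0.283 and 0.231 RPKM in WT replicates 1 to 3 and 2.35, 1.89 and 1.58 in those of osnat10. Every osnat10 library lay above every WT library (log2 fold change 1.80 ± 0.26 SE, limma adjusted p = 0.0552). It was tested only because its osnat10 libraries reached 0.5 RPKM, since no WT library did, so that requirement favoured both the separation and the p, and these values are a description. They rest on 15 reads over the WT libraries and 138 over the osnat10 libraries. In the authors' deposited table its log2 fold change was 3.18 ± 0.61 SE with an adjusted p of 3.3e-05.

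The abundant members of the cluster were not separated. Adh2 (Os11g0210500), named like ADH1 after the values were seen, measured 128, 58.9 and 37.0 RPKM in WT replicates 1 to 3 and 105, 107 and 89.0 in those of osnat10. WT replicate 1 exceeded all osnat10 libraries while WT replicates 2 and 3 lay below them (log2 fold change 0.60 ± 0.40 SE, limma adjusted p = 0.447), and without WT replicate 1 the gene passed (adjusted p = 0.0263). ADH1 (Os11g0210300) stood at 15, 19.6 and 33.7 in WT and 33.1, 24.2 and 28.2 in osnat10 with overlapping groups (log2 fold change 0.39 ± 0.29 SE, limma adjusted p = 0.503). Os07g0691600, another plain alcohol dehydrogenase, measured 0.694, 0.516 and 0.409 RPKM in WT replicates 1 to 3 and 1.39, 1.92 and 2.07 in those of osnat10, without overlap (log2 fold change 1.14 ± 0.26 SE, limma adjusted p = 0.0988), and passed without WT replicate 1 (adjusted p = 0.0349). Of its WT libraries only replicates 1 and 2 reached 0.5 RPKM, so Os07g0691600 was tested only because its osnat10 libraries did. That requirement favoured both the separation and the p, so these values are a description. They rest on 37 reads over the WT libraries and 121 over the osnat10 libraries. In the authors' deposited table the gene had a log2 fold change of 1.62 ± 0.53 SE and an adjusted p of 0.0382. Os11g0523110, picked with its values known, stood at 3.48, 4.87 and 2.45 in WT and 5.03, 9.84 and 7.27 in osnat10, also without overlap (log2 fold change 0.94 ± 0.32 SE, limma adjusted p = 0.179). Os03g0189600, picked with its values known, stood at 17.6, 84.8 and 56.5 in WT and 23.8, 26.4 and 28.0 in osnat10, so WT replicate 1 lay below and the other WT libraries above the osnat10 libraries, and it passed without WT replicate 1 (limma adjusted p = 0.00977). Summed over the 9 plain genes the step was 193 ± 29.2 in WT and 201 ± 8.96 in osnat10 (SD, n = 3 each).

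**Figure D4:**
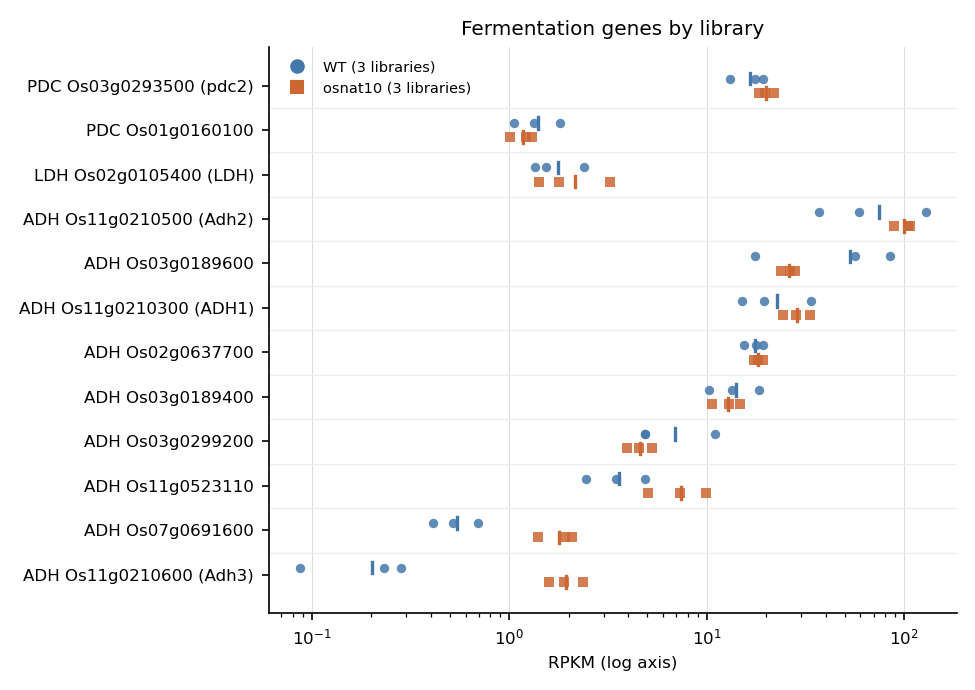
RPKM (x axis, log scale) of the tested pyruvate decarboxylase (PDC), lactate dehydrogenase (LDH) and plain alcohol dehydrogenase (ADH) genes (y axis) in each library, with a bar at each group mean. Adh3, Os07g0691600 and Os11g0523110 separate with osnat10 above WT at low levels, and Adh2 and ADH1 overlap. Adh3 and Os07g0691600 reached the level required for the test only through their osnat10 libraries.

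The other kinds of alcohol dehydrogenase are members through the words of their descriptions. The most abundant was the class III enzyme Os02g0815500, a type that acts on glutathione adducts of formaldehyde, at 170.4, 175 and 254 RPKM in WT replicates 1 to 3 and 194, 193 and 189 in those of osnat10. The groups overlapped and the means were close (log2 fold change -0.03 ± 0.20 SE, limma adjusted p = 0.943), and the sign turned without WT replicate 3. Os12g0225900, described as an allyl alcohol dehydrogenase, measured 12.8, 5.18 and 8.66 RPKM in WT replicates 1 to 3 and 28.5, 25.6 and 21.1 in those of osnat10, with every osnat10 library above WT (log2 fold change 1.52 ± 0.31 SE, limma adjusted p = 0.0863). It passed without WT replicate 1 (adjusted p = 0.00889), and in the authors' deposited table it had a log2 fold change of 1.35 ± 0.39 SE and an adjusted p of 0.0158. Its neighbour Os12g0226900 stood at 35.9, 4.43 and 5.78 in WT and 26.6, 22.8 and 19.7 in osnat10, where WT replicate 1 alone exceeded the osnat10 libraries, and it passed without that library (limma adjusted p = 0.00325). ONI3 (Os09g0363900), described as a long-chain fatty acid omega-alcohol dehydrogenase and important for shoot development, stood at 0.807, 0.129 and 21.3 in WT and 18.1, 9.76 and 16.8 in osnat10, where WT replicate 3 alone reached the osnat10 range, and it passed without that library (adjusted p = 0.00607). Os12g0226900 and ONI3 were named after their values were seen. ONI3 was tested only because its osnat10 libraries reached 0.5 RPKM, since of the WT libraries only replicates 1 and 3 did. Of the 28 tested genes of these kinds, 15 had positive and 13 negative fold changes, beside 59.9% positive over all tested genes.

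Neighbouring steps were read from 67 genes in 10 lists, of which 58 were tested. None of the 58 was called by limma, where 0.152% of all tested genes were called, and 16 were higher and 6 lower at an unadjusted p under 0.05, beside 13.6% and 5.69% of all tested genes. Fold changes were positive in 36 and negative in 22, beside 59.9% positive over all tested genes. The authors' deposited table gave 8 of these genes an adjusted p under 0.05, 3 higher and 5 lower in osnat10, beside 6.2% of all genes with such a value there (2.42% higher and 3.79% lower). By limma, the 3 with the smallest p were a phosphoglucomutase, a sucrose synthase and a hemoglobin. Os06g0476200, a phosphoglucomutase that links glucose 1-phosphate to glycolysis, measured 13.5, 21.1 and 18.8 RPKM in WT replicates 1 to 3 and 6.10, 7.33 and 4.35 in those of osnat10, without overlap (log2 fold change -1.51 ± 0.25 SE, limma adjusted p = 0.0663). The authors' deposited table gave it a log2 fold change of -1.67 ± 0.27 SE with an adjusted p of 3.75e-07. SUS4 (Os03g0340500), a sucrose synthase, measured 15.7, 35.9 and 44.9 RPKM in WT replicates 1 to 3 and 8.88, 7.67 and 7.60 in those of osnat10, also without overlap (log2 fold change -1.81 ± 0.36 SE, limma adjusted p = 0.0851). In the authors' deposited table its log2 fold change was -2.07 ± 0.34 SE with an adjusted p of 2.88e-07. SUS1 (Os03g0401300), the more abundant sucrose synthase and picked with its values known, stood at 104, 171 and 401 in WT and 484, 319 and 484 in osnat10, with WT replicate 3 inside the osnat10 range.

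Non-symbiotic hemoglobins bind oxygen and nitric oxide and are commonly followed beside fermentation genes in low oxygen. OsHB4 (Os03g0234100) measured 3.52, 0.0528 and 0.151 RPKM in WT replicates 1 to 3 and 15.5, 10.8 and 7.88 in those of osnat10, with every osnat10 library above WT and WT replicate 1 far above the other WT libraries (log2 fold change 3.34 ± 0.72 SE, limma adjusted p = 0.0926). Its WT level rests on 66 reads. OsHB4 was tested only because its osnat10 libraries reached the level required for the test, since of the WT libraries only replicate 1 did. That requirement favoured both the separation and the p, so these values are a description. HB1 (Os03g0233900), picked with its values known, stood at 35.7, 11.3 and 5.80 in WT and 59.3, 70.0 and 87.0 in osnat10 (log2 fold change 2.37 ± 0.56 SE, limma adjusted p = 0.104). The authors' deposited table gave it a log2 fold change of 1.84 ± 0.59 SE with an adjusted p of 0.0360. The summed RPKM of the 6 hemoglobin genes was 68.9 ± 28.7 in WT and 150.1 ± 11.7 in osnat10 (SD, n = 3 each). Of the 6, 5 had positive fold changes, beside 59.9% of all tested genes, and 4 of them reached an unadjusted p under 0.05, beside 13.6% of all tested genes that were higher at that level. The 4 include OsHB4 and HB3, which both reached the test only through their osnat10 libraries, so the same limit holds for this count. None of the 6 hemoglobin genes was called by limma. The RCc-type root genes given above also lay higher in every osnat10 library, and the part of tissue makeup here was not tested.

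**Figure D5:**
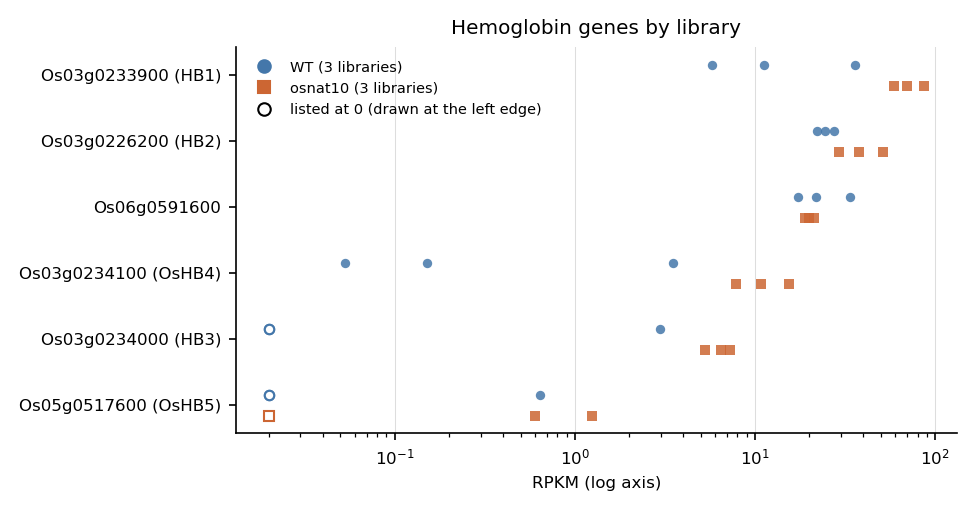
RPKM (x axis, log scale) of the 6 hemoglobin genes (y axis) in each library, with values listed at 0 drawn as open symbols at the left edge. HB1, HB2, OsHB4 and HB3 separate with osnat10 above WT, and OsHB5 and Os06g0591600 overlap. OsHB4 and HB3 reached the level required for the test only through their osnat10 libraries.

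Around the lower part of the pathway, the list taken by the name glyceraldehyde 3-phosphate dehydrogenase had 6 positive and 1 negative fold changes among 7 genes, and its summed RPKM was 1491 ± 285 in WT and 1672 ± 105 in osnat10 (SD, n = 3 each). It also holds Os03g0129300, whose description gives the enzyme number of the NADP-dependent chloroplast type, and OsALDH11A3 (Os08g0440800), whose symbol is that of an aldehyde dehydrogenase, so the sum is not that of the glycolytic step alone. Os03g0129300, picked with its values known, stood at 871, 594 and 371 in WT and 444, 579 and 458 in osnat10 and was the 1 gene with a negative fold change. Os04g0486600, described as cytosolic and also picked with its values known, stood at 356, 396 and 451 in WT and 614, 631 and 715 in osnat10. Its groups did not overlap (log2 fold change 0.71 ± 0.20 SE, limma adjusted p = 0.135). The authors' deposited table gave Os04g0486600 a log2 fold change of 0.60 ± 0.17 SE with an adjusted p of 0.0109. Phosphoglycerate kinase, which makes the first ATP, summed to 1021, 885 and 615 in WT and 484, 582 and 490.3 in osnat10. All osnat10 libraries thus lay below WT, and OsPGK3 (Os05g0496200) held most of the sum. OsPGK2 (Os02g0169300), described as cytosolic and picked with its values known, lay on the other side without overlap. It stood at 49.2, 36.0 and 34.6 in WT and 56.9, 65.5 and 65.0 in osnat10 (log2 fold change 0.65 ± 0.18 SE, limma adjusted p = 0.128). PGK (Os06g0668200), also described as cytosolic and picked with its values known, stood at 5.10, 8.12 and 4.57 in WT. In osnat10 it stood at 6.19, 4.98 and 5.86, so its groups overlapped. The description of OsPGK3 names no compartment, and the list also holds a gene described as related to 2-phosphoglycerate kinase. The lower sum in osnat10 therefore cannot be read as that of the glycolytic step. In the authors' deposited table OsPGK3 had a log2 fold change of -0.97 ± 0.30 SE and an adjusted p of 0.0230. Alanine aminotransferase, which makes alanine from pyruvate, summed to 679, 634 and 511 in WT and 373, 436 and 353 in osnat10, also without overlap. ALT-2 (Os07g0108300), named like OsPGK3 after the values were seen, carried that difference at 602, 537 and 423 in WT and 279.7, 342 and 256 in osnat10 (log2 fold change -0.83 ± 0.22 SE, limma adjusted p = 0.122). In the authors' deposited table its log2 fold change was -0.95 ± 0.26 SE with an adjusted p of 0.00945. Pyruvate dehydrogenase, which leads to the citric acid cycle, summed to 368 ± 37.8 in WT and 369 ± 22 in osnat10 (SD, n = 3 each). Aldehyde dehydrogenase summed to 529 ± 64.8 in WT and 502 ± 5.06 in osnat10 (SD, n = 3 each), phosphoenolpyruvate carboxylase to 60.3 ± 16.5 in WT and 54.2 ± 2.00 in osnat10 (SD, n = 3 each), and the pyruvate phosphate dikinase gene stood at 3.09, 1.63 and 2.13 in WT and 1.31, 0.967 and 1.13 in osnat10.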

How the data were processed

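RNA-seq of 6 rice seedling libraries, 3 of WT and 3 of osnat10, was used. The series also has 8 libraries of acRIP-seq, not analysed here. The authors deposited RPKM for 38978 genes and their own comparison of the genotypes for 32190 genes, which per the file headers has the columns of DESeq2. STAR 2.5.3a, deepTools, DESeq2 and genome build IRGSP-1.0 appear, without roles, in the submitters' processing notes. The read counter, the annotation release and any use of strand in the RNA-seq counting are not stated. In that comparison the mean signal (size-factor-scaled counts), the log2 fold change with its standard error and the p-value were computed by the authors. The Wald score deposited by the authors runs opposite in sign to that fold change and was not used.

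Whole reads were recovered from the steps of low RPKM values and the authors' mean signal, and 99.977% of values above 0 came out whole within 0.05 reads. They serve to give the reads behind single genes and the depth, and no test uses them. Depth was 13688629 to 15583776 reads per library, and intervals of such counts cover counting error only.

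log2(RPKM + 0.5) was tested with limma 3.58.1 in R 4.3.3 (empirical Bayes with trend) on genes reaching 0.5 RPKM in 3 or more of 6 libraries, without covariates, and p-values were adjusted by Benjamini-Hochberg over 24380 genes. This scale understates fold changes of low genes. Summed RPKM per enzyme step was compared with an exact two-sided permutation test of 3 against 3 libraries, adjusted over 11 steps. The limma step was also run on simulated data with the same SD per gene in both genotypes, so that run does not cover the wider spread of the WT libraries. Python 3.11.15 with pandas 2.3.3, numpy 2.4.6 and matplotlib 3.10.9 handled tables and plots. Alternatives were other pseudocounts (0.1 and 1), no or a stricter filter, other scalings, a replicate block, group weights and each library left out.

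The members and lists were chosen with earlier results of these data known. Named were the called members, the most abundant member of each step, the 10 members with the smallest p and the 3 other pathway genes with the smallest p, and genes outside this rule are marked in the text. The labels say biological replicates without saying how many plants or cultures they came from, so p-values measure the spread between these samples.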

Additional observations from a re-analysis of the deposited data

How the results depend on the processing

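The number of members called moved from 1 to 3 with median of ratios scaling, 2 with quantile normalisation and 2 with a weight per genotype group. It ran from 0 to 17 on leaving out 1 library, and the authors' deposited comparison, added after seeing the data, gave 11. Over all genes, 37 were called, 30 higher and 7 lower. Median of ratios scaling gave 108, 51 higher and 57 lower, quantile normalisation 28 higher and 24 lower, and group weights 150. Leaving out 1 library gave 8 to 2713, and the authors' deposited comparison gave 1681. For the other pathway genes, median of ratios scaling and group weights gave 1 call each in place of 0, and leaving out 1 library gave 0 to 12. The median log2 fold change of all tested genes was 0.11 and became -0.0262 with quantile normalisation.

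The deviations of same-numbered libraries correlated at -0.0589, -0.0259 and 0.126, and those of differently numbered libraries at -0.106 to 0.117. No clear pairing by replicate number was seen, but these few values cannot show whether same-numbered samples were handled together. With the replicate number as a block, 20 of all genes were called, 16 higher and 4 lower, and 1 member, again Os12g0169600.

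Leaving out 1 library turned the sign of these log2 differences, none of them called. The value ran from -0.271 to 0.0649 for BPM (Os01g0817700). The value ran from -0.57 to 0.336 for Os12g0189300. The value ran from -0.0859 to 0.403 for LDH (Os02g0105400). The value ran from -0.137 to 0.15 for Os02g0815500. The summed glucose-6-phosphate isomerase ran from -0.0695 to 0.107. The summed aldolase ran from -0.0208 to 0.366. The summed pyruvate kinase ran from -0.0247 to 0.34. The summed lactate dehydrogenase ran from -0.0937 to 0.501. With median of ratios scaling the log2 difference of the glucose-6-phosphate isomerase sum was -0.0963 in place of 0.01, and that of the alcohol dehydrogenase sum -0.0618 in place of 0.05. Over the narrower set of 60 members, added after seeing the data, that of the phosphoglycerate mutase sum was 0.0793. The cause of these changes was not tested. Depth limits the members with few reads, such as Adh3 and LDH.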

Other observations

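Of the 17 members below the level required for the test, 5 had no read in any library and the highest single value was 1.01 RPKM. pdc1 (Os05g0469600), a pyruvate decarboxylase, stood at 0, 0.0476 and 0 RPKM in WT and 0, 0.0739 and 0 in osnat10. pdc3 (Os07g0693100) stood at 0.209, 0.0243 and 0.0923 in WT and 0.261, 1.01 and 0.292 in osnat10, so its osnat10 libraries lay above WT at a level of few reads. OsHXK1 (Os07g0446800), a hexokinase, stood at 0, 0.355 and 0.0920 in WT and 0, 0.234 and 0 in osnat10. These genes were named after their values were seen.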
